A study of Mus musculus with 2 samples.

Results

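The cells described here are regulatory T cells (Tregs) of the mouse spleen that carried a low PPARg reporter signal and in which no transcript of Klrg1 was counted. They were selected on their own counts. A cell of the PPARg-low library was taken when 10% or less of its UMIs (barcode-tagged molecules, so that 1 UMI is 1 transcript counted) came from mitochondrially encoded genes, when it had 1000 or more UMIs, 0 Klrg1 UMIs, 0 or 1 UMIs summed over Il10, Lag3, Ccr8 and Il1r2, and 0 or 1 UMIs summed over Ccr2, Ccr3, Itgae and Gzmb. That left 375 of the 1992 barcodes of the library, out of 4894 in the series, and 375 of the 1115 cells that met the mitochondrial and depth conditions (33.6%, exact binomial 95% interval 30.9 to 36.5%). The same conditions left 1936 of 2128 cells of the PPARg-negative library (91.0%), and these are the matching cells. Both libraries came from male B6 Pparg-Tdt.Foxp3-Gfp mice at 8 weeks of age, in which Pparg reports through a red and Foxp3 through a green fluorescent protein, and no treatment was recorded. Spleens of 2 or 3 mice were pooled per sort, and single cells were captured for droplet-based 3′ sequencing. Each group was thus 1 library, the labels do not separate the mice, and no comparison below has a replicate check or a p-value. Intervals are given at 95% and reflect how many UMIs or cells were counted. Their width leaves out differences between mice, sorts and cells. The labels call the sorted reporter-bearing cells low while the tag on the deposited matrix calls them positive, and the labels' word is used here. Of the barcodes, 5 occurred in both libraries, 1 of them among the 375 cells.

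Tregs depend on the transcription factor Foxp3 and restrain other immune cells. In lymphoid organs many of them rest and recirculate through blood and lymph, guided by homing receptors such as Ccr7. Others have seen antigen, carry costimulatory and inhibitory receptors, and can move into nonlymphoid tissues such as fat, where Tregs rely on PPARg, a nuclear receptor that controls lipid genes. Klrg1 is an inhibitory lectin-like receptor that marks far-differentiated effector and tissue-type Tregs. Il10, Lag3, Ccr8 and Il1r2, and Ccr2, Ccr3, Itgae and Gzmb, are further genes of effector or tissue Tregs, so the conditions leave the PPARg-low cells with the fewest transcripts of such genes.

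In cells that met both gene-sum conditions, those without a Klrg1 UMI were 78 of 205 at 1000 to under 1500 UMIs (38.0%), 91 of 205 at 1500 to under 2000 (44.4%), 141 of 286 at 2000 to under 3000 (49.3%) and 65 of 129 at 3000 or more (50.4%). The share was thus not higher in shallower cells, and within ribosome-rich cells, defined below, it ran from 48.6 to 52.2%. In the PPARg-negative library it ran from 93.1% in the lowest depth range to 98.5% in the highest. A count of 0 in a single cell does not show that the gene was off, and the share of the 375 cells with uncounted Klrg1 transcripts was not measured. The nearest cells outside the condition, 185 with 1 Klrg1 UMI, had a median of 1888 UMIs, against 2081 in the 375 cells.

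**Figure D1:**
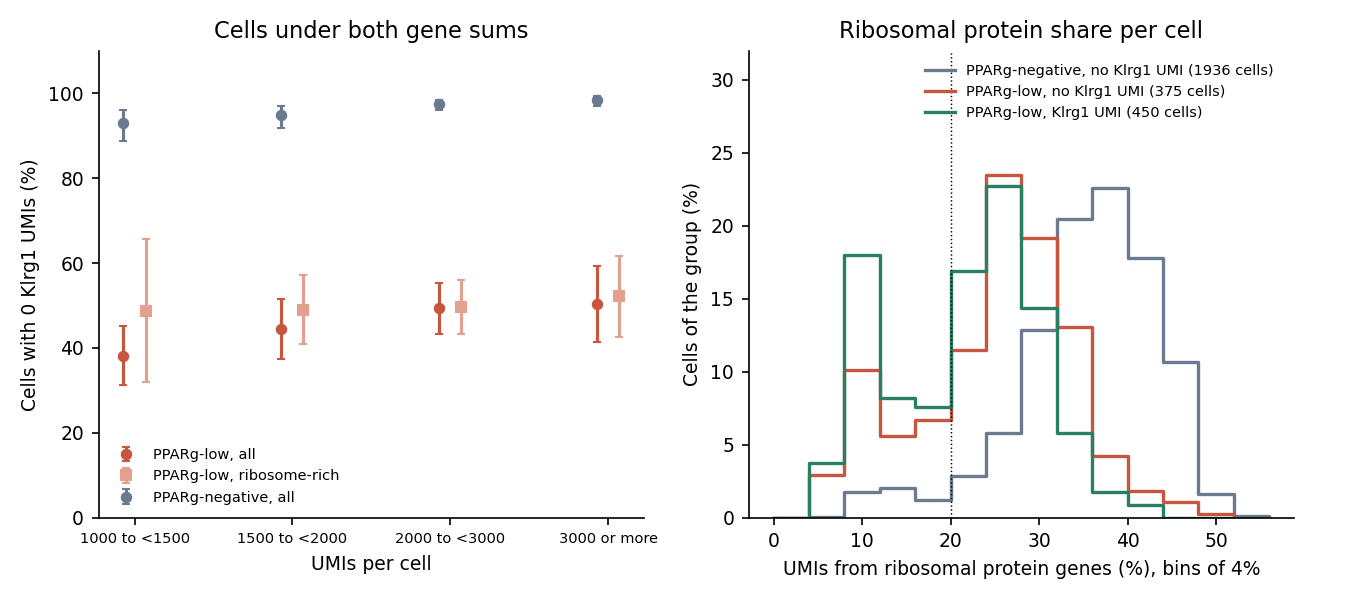
Left, share of cells without a Klrg1 UMI among cells that met both gene-sum conditions, by UMIs per cell, with exact binomial 95% intervals; right, distribution over cells of the percentage of UMIs from ribosomal protein genes in bins of 4%, with a dotted line at 20%. The PPARg-low share runs from 38.0 to 50.4% and the PPARg-negative share from 93.1 to 98.5%, and more of the PPARg-low cells lie left of the dotted line.

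The 375 cells held 846399 UMIs, with a median of 2081 UMIs and 996 genes per cell, and the 1936 matching cells held 5074571, with a median of 2461 UMIs and 1010 genes. Both groups had cells with a small share of ribosomal protein UMIs. Cells under 20%, called ribosome-poor below, made up 95 of the 375 cells (25.3%) and 97 of the 1936 matching cells (5.01%, 4.08 to 6.08%). Their median depth was 1333 and 1262 UMIs, and their median mitochondrial shares of 6.08 and 6.26% were above those of the other, ribosome-rich cells, at 2.68 and 2.29%. Malat1, a nuclear RNA, made up 6.23 and 6.49% of UMIs in the median ribosome-poor cell and 3.35 and 2.41% in the median ribosome-rich one. Because this composition moves with the comparison, values within ribosome-poor cells are given for the lists below that had enough members measured there; its part in the differences over all cells was not tested.

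All 375 cells had a UMI of the 6 Treg markers, and all had one of the 7 general T cell markers. Of 8 B cell markers, Cd79a and Ebf1 were among those at 0, and the list summed to 42.5 CPM, against 36.1 CPM in the matching cells (CPM, UMIs of a gene or list per 1000000 UMIs of the group). Cd79b had 24 UMIs (28.4 CPM, against 15.8 CPM) and Ighd 8 (9.45 CPM, against 5.12 CPM). A UMI of the list was found in 7.73% of the 375 cells and 4.91% of the matching cells, unthinned. In the matching cells, 1 cell held 81 of the list's 183 UMIs. Of 6 macrophage or monocyte markers, Lyz2, Csf1r and Adgre1 were at 0 and Cst3, which other cells express too, supplied 149 of the 159 UMIs. Of 4 CD8 T cell markers, Cd8a, Gzmk and Eomes were at 0 and Cd8b1 had 19 UMIs in 16 cells (4.27%), 22.4 CPM, against 30.7 CPM for the list in the matching cells. The 7 conventional helper T cell markers summed to 50.8 CPM, against 32.3 CPM, with Il13, Il17a and Il21 at 0, and the 5 NK cell markers to 7.09 CPM (6 UMIs), against 0.985 CPM, with Ncr1 at 0; their part in the results was not tested. All markers of neutrophils, dendritic cells and platelets were at 0. After each cell was thinned to 1000 UMIs, Cd79a was found in 0 of 375 cells, which allows a share of up to 0.800% by a floor of 3 cells (0.979% by the exact interval), and in 4 of 1936 matching cells (0.207%), and Lyz2 in 0 and in 1. The 4 plasma cell markers summed to 80.3 CPM, against 77.6 CPM, and Xbp1 supplied 67 of their 68 UMIs. The 5 erythroid markers had 3 UMIs (3.54 CPM, against 0.788 CPM). The 375 cells thus had few UMIs of most of these genes, and the origin of those UMIs was not tested.

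Pparg (ENSMUSG00000000440, mm10 chromosome 6, 115360951 to 115490399, plus strand), whose reporter defined the sort, had 4 UMIs in the 375 cells, or 4.73 CPM, and 0 UMIs in the 1936 matching cells. In PPARg-low cells that met both gene-sum conditions and had a Klrg1 UMI, 450 cells, Pparg had 23 UMIs, or 23.7 CPM. The 4 UMIs came from 4 cells (1.07%), while the sort was by the reporter. Foxp3 (ENSMUSG00000039521, plus strand of chromosome X, 7573644 to 7595245) was counted 20 times in the 375 cells and 112 times in the matching cells, a ratio of 1.07 (0.630 to 1.73), and no difference was detectable at this depth. Thinned to 1000 UMIs, 2.40% of the 375 cells and 2.38% of the matching cells had a Foxp3 UMI.

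The genes of the selection are given as description. In the 375 cells Klrg1 (ENSMUSG00000030114, chromosome 6, 122270596 to 122282882, minus strand) was at 0 by construction, and the UMIs of the others ran from 5 for Gzmb to 40 for Lag3, each in as many cells. Il10 had 6, Ccr8 19, Il1r2 8, Ccr2 7, Ccr3 7 and Itgae 13 UMIs. In the 1936 matching cells Lag3 had 35, Ccr2 34, Itgae 30, Gzmb 29, Ccr8 9, Il1r2 3, Ccr3 3 and Il10 0 UMIs. As the matching cells held more UMIs in all, the levels compare otherwise. In the 375 and the matching cells Lag3 stood at 47.3 and 6.90 CPM, Ccr8 at 22.4 and 1.77 and Itgae at 15.4 and 5.91. Il1r2 stood at 9.45 and 0.591 CPM, Ccr3 at 8.27 and 0.591 and Il10 at 7.09 and 0. Ccr2, at 8.27 and 6.70 CPM, and Gzmb, at 5.91 and 5.71 CPM, were closer. Of the PPARg-low cells just outside the first gene sum, 22 had 2 UMIs of its genes, and their Tnfrsf9 level was 1582 CPM, against 844 CPM in the 73 cells with 1 and 452 CPM in the 302 cells with 0. Their median ribosomal protein share was 18.5%, against 23.9 and 26.8%, and its part was not tested. Penk stood at 163, 269 and 199 CPM in the same order. By the second gene sum, Tnfrsf9 stood at 527 CPM in 343 cells with 0, 554 CPM in 32 with 1 and 1157 CPM in 7 with 2.

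How far these cells differ from PPARg-negative cells under the same conditions was asked first. PPARg-low cells without Klrg1 UMIs had less RNA of resting, recirculating Treg genes and more of effector Treg genes than PPARg-negative cells without them. Over 8199 genes with 30 or more UMIs in both groups together, leaving out the 9 genes of the selection, 1366 (16.7%) were higher in the PPARg-low cells and 220 (2.68%) were lower. Higher or lower means here, and in every count below, a ratio of 1.5 or more in that direction with its interval on the same side of 1. The median log2 ratio of all these genes was 0.26. The 82 ribosomal protein genes had a median of -0.46 and the 13 mitochondrially encoded genes one of 0.37. With CPM computed without both kinds of gene, 775 genes were higher and 376 lower, and relative to the median of all genes 696 were higher and 534 lower. Within ribosome-rich cells 978 of 8022 genes were higher (12.2%) and 216 lower (2.69%), and within ribosome-poor cells, where only 1583 genes had 30 UMIs, 88 were higher (5.56%) and 82 lower (5.18%).

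**Figure D2:**
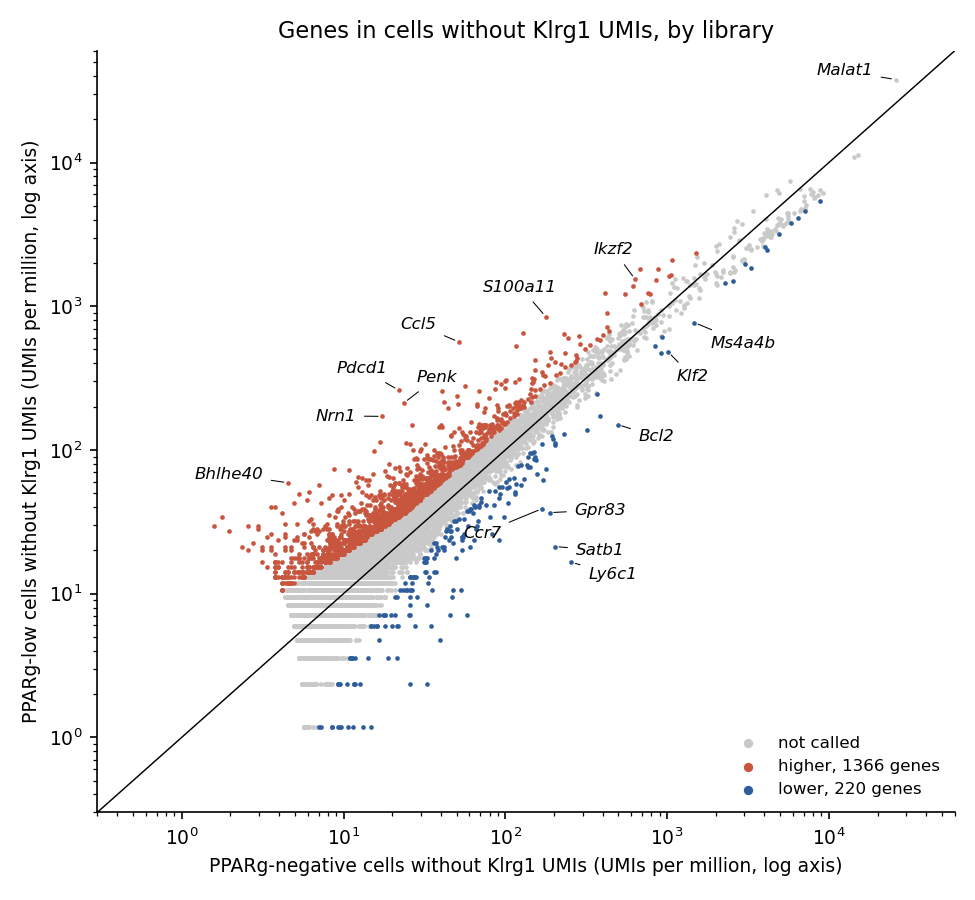
Level of each gene with 30 or more UMIs, and at least 1 in each group, in PPARg-negative cells (x axis) and in PPARg-low cells (y axis) without Klrg1 UMIs, in CPM on log axes, with equal levels on the line; red genes are higher and blue genes lower in the PPARg-low cells by 1.5-fold or more with the counting interval on that side of 1. Pdcd1, Ccl5, Nrn1 and Penk lie far above the line and Ly6c1, Satb1, Gpr83 and Ccr7 far below it.

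Of 16 genes of resting and recirculating Tregs, all measured, 15 were lower and 1 was higher in the PPARg-low cells, with a median log2 ratio of -1.83, or 3.55-fold lower. Satb1 (ENSMUSG00000023927), a chromatin organiser, had 18 UMIs in the 375 cells (21.3 CPM) and 1028 in the matching cells (203 CPM), a ratio of 0.105 (0.0620 to 0.167). Ly6c1, a surface protein of resting and memory T cells whose reads a close paralog could share, had 14 and 1300 UMIs, a ratio of 0.0646 (0.0352 to 0.109). Bach2, a repressor that holds T cells in a resting state, had 2 and 167 UMIs, a ratio of 0.0718 with a wide interval of 0.00862 to 0.263. These levels were near the floor of detection in the PPARg-low cells.

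Ccr7 and S1pr1 were lower by smaller factors. Ccr7, which draws T cells into lymph nodes and the T cell zone, had 33 UMIs (39.0 CPM) in the PPARg-low cells and 856 (169 CPM) in the matching cells, 4.33-fold lower. The egress receptor S1pr1 had 72 and 786 UMIs, a ratio of 0.549 (0.425 to 0.700). At 1000 UMIs per cell, the shares of cells with a Satb1 UMI were 1.87 and 18.9% (3.73 and 36.3% unthinned) and those for Ccr7 were, unthinned, 7.47 and 31.5%, and its thinned share in the 375 cells was 4.27%. For both genes the intervals of the thinned shares did not overlap.

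The transcription factor Tcf7, which keeps T cells in a long-lived, stem-like state, had a ratio of 0.438 (0.329 to 0.572), and Treml2 and Igfbp4 had 6 UMIs each, against 231 and 296. The exception on the list was Il7r, the receptor chain for interleukin 7, at 1.72-fold higher, with 220 and 769 UMIs. Within ribosome-rich cells 15 members were again lower and 1 was higher, with a median of -1.72. Within ribosome-poor cells 7 members had enough UMIs, and 4 of them were lower and 0 higher, with a median of -1.15. Treml2 and Nsg2 were put on this list because an earlier look at these libraries had shown them to be low in the PPARg-low library, so they give no independent evidence of the list's direction.

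Among other genes with the lowest ratios were receptors and a survival gene. Ccr9, a chemokine receptor of gut-homing T cells, had 0 UMIs in the PPARg-low cells and 98 in the matching cells. With the 0 set to a floor of 3 counts over the group it was 5.45-fold lower, and the interval runs from 4.35-fold upward. Tubb2b, a tubulin, had 0 and 64 UMIs, 3.56-fold lower by the same floor. Gpr83, a receptor found on resting Tregs, had 31 and 953 UMIs, a ratio of 0.195 (0.132 to 0.279). Bcl2, which protects cells from death, had 127 UMIs (150 CPM) and 2514 (495 CPM), a ratio of 0.303 (0.251 to 0.362). Its ratio was 0.325 within ribosome-rich and 0.241 within ribosome-poor cells, so it was lower in both. Gata1, a transcription factor best known from red cell precursors, had 4 and 200 UMIs, and Cnn3, an actin-binding protein, had 2 and 131.

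Of 16 effector Treg genes, 15 were higher and 0 were lower, with a median log2 ratio of 1.99, or 3.97-fold. Pdcd1 (ENSMUSG00000026285), the inhibitory receptor PD-1, had 221 UMIs (261 CPM) in the 375 cells and 111 (21.9 CPM) in the matching cells, 11.9-fold higher (9.46 to 15.1). The transcription factor Bhlhe40 had 50 UMIs (59.1 CPM) and 23 (4.53 CPM), and the interval of its ratio ran from 7.81 to 22.4. Nfil3, another transcription factor, was 7.59-fold and the activation marker Cd83 6.32-fold higher, and Id2, which steers effector differentiation, had 126 and 135 UMIs. Tnfrsf9, the costimulatory receptor 4-1BB, had 448 UMIs (529 CPM) and 590 (116 CPM), 4.55-fold higher (4.02 to 5.16). The costimulatory receptor Icos was 3.38-fold higher (2.89 to 3.96).

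At 1000 UMIs per cell, Pdcd1 was found in 75 of the 375 cells (16.1 to 24.4%) and 2.38% (1.74 to 3.16%) of the matching cells (35.5 and 4.75% unthinned). The shares were 32.8 and 8.99% for Tnfrsf9 and 26.1 and 8.06% for Icos. The effector list's median was 1.80 within ribosome-rich cells, where 14 of 16 were higher. Within ribosome-poor cells it was 1.10, and 7 of the 9 measured members were higher. There the Icos ratio was 1.02, and Icos was found in 43.2% (33.0 to 53.7%) of ribosome-poor PPARg-low and 36.1% (26.6 to 46.5%) of ribosome-poor matching cells, so no Icos difference was detectable between ribosome-poor cells. Pdcd1 was 3.06-fold and Tnfrsf9 2.14-fold higher in them.

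Of 17 genes tied to Tregs of nonlymphoid tissues, 9 had enough UMIs, and 7 of these were higher and 0 lower, with a median log2 ratio of 1.45. Gata3, a transcription factor of type 2 and tissue Tregs, had 262 UMIs (310 CPM) and 614 (121 CPM), 2.56-fold higher (2.21 to 2.96), with 2.31-fold in ribosome-rich and 2.45-fold in ribosome-poor cells. Rora, another such factor, was 2.62-fold and the integrin chain Itgav 4.16-fold higher. Penk, which encodes the opioid precursor proenkephalin, had 180 UMIs (213 CPM) and 120 (23.6 CPM), 8.99-fold higher (7.10 to 11.4). Asb2, part of a ubiquitin ligase, had 25 and 8 UMIs, 18.7-fold higher (8.19 to 48.1). Penk, Asb2, Ctsh, Trf and Mt1 were placed on the list from earlier results on these libraries and give no independent evidence of its direction. The 8 members with fewer than 30 UMIs take no part in these counts.

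Genes on the list of Treg identity, not all of them particular to Tregs, moved in both directions. Of 12 measured, 6 were higher, 2 lower and 4 neither, with a median log2 ratio of 0.58. The higher ones were Ctla4, Ikzf2, Tnfrsf18, Nt5e, Capg and Cd4. Cd4 is also a general T cell marker here, and Nt5e is on the suppressive mediator list as well. Ikzf2, the Treg transcription factor Helios, had 1306 UMIs (1543 CPM) and 3215 (634 CPM), 2.44-fold higher (2.28 to 2.60), and was found at 1000 UMIs in 69.3% (64.4 to 74.0%) and 38.7% (36.6 to 41.0%) of cells. Among ribosome-poor cells its shares were 90.5% (82.8 to 95.6%) and 73.2% (63.2 to 81.7%). Ctla4, an inhibitory receptor that Tregs use to disarm antigen-presenting cells, was 2.59-fold higher over all cells and 2.12-fold higher in ribosome-rich cells, but its ratio in ribosome-poor cells was 1.18. Il2ra, the high-affinity chain of the interleukin 2 receptor on which Tregs depend, had 105 UMIs (124 CPM) and 989 (195 CPM), a ratio of 0.637 (0.515 to 0.779). Its ratio was 0.634 among ribosome-rich and 0.528 among ribosome-poor cells, lower in both. Gpr83 was the other lower member of the list. Within ribosome-poor cells 1 of 8 measured members, Tnfrsf18, was higher and 1 lower, with a median of 0.17, so Ikzf2 was not called higher there.

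**Figure D3:**
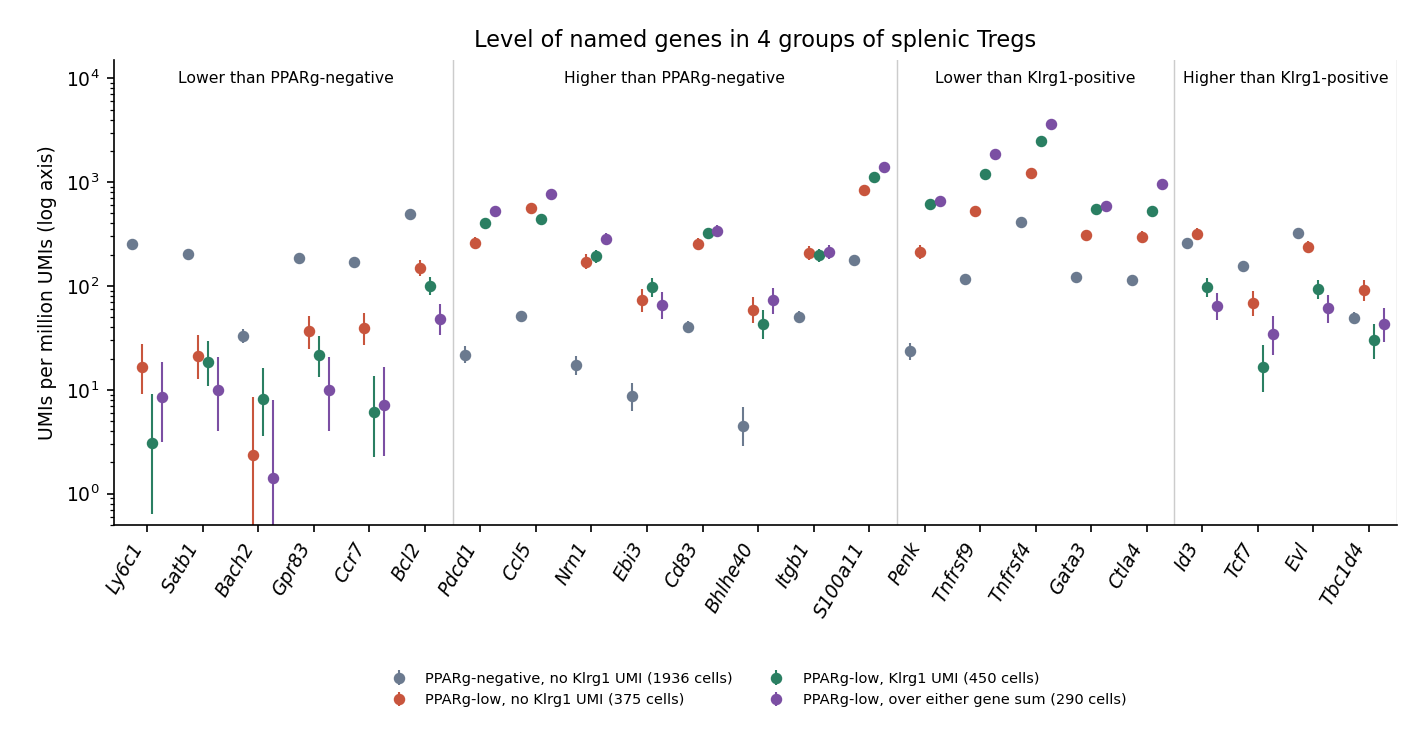
Level in CPM (log axis) of named genes in 4 groups of splenic Tregs, with exact Poisson 95% intervals; blocks name how the PPARg-low cells without Klrg1 UMIs (red) differ from the PPARg-negative or from the Klrg1-positive PPARg-low cells, and a gene may meet more than 1 heading. Pdcd1 stands at 261 CPM in the red group and 21.9 in the PPARg-negative group, and Id3 at 320 in the red group and 97.0 in the Klrg1-positive one.

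Of 10 measured genes of suppressive mediators, 7 were higher and 0 lower, with a median of 1.38. Ebi3, a subunit of the suppressive cytokine interleukin 35, had 62 UMIs (73.3 CPM) and 44 (8.67 CPM), 8.45-fold higher (5.65 to 12.7). Fgl2, a secreted suppressive protein, was 7.99-fold, Itgb8, an integrin chain that releases active TGF-beta, 5.02-fold, and Entpd1, the ATP-degrading enzyme CD39, 4.31-fold higher. Among ribosome-poor cells only 3 members were measured, with a median of -0.01.

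Over all cells, genes of 2 further lists were mostly higher. Of 13 integrin and adhesion genes, 8 were higher and 1 was lower (median 0.95), and Itgb1, the beta-1 integrin chain, had 176 UMIs (208 CPM) and 258 (50.8 CPM), 4.09-fold higher (3.36 to 4.97). The list of S100, galectin and annexin genes holds small calcium-binding, sugar-binding and membrane-binding proteins that many activated and tissue T cells express, and 9 of its 14 measured members were higher and 0 lower (median 1.05). S100a6 was 5.10-fold, S100a11 4.77-fold, S100a4 3.76-fold and Lgals3 10.7-fold higher. In ribosome-poor cells the S100, galectin and annexin list had 2 of 8 members higher and 0 lower (median 0.23). There the adhesion median was -0.39, with 0 of 9 members higher and 1 lower, and the ratios were 0.847 for Itgb1, 0.539 for Cd44, 0.611 for Icam1 and 0.716 for S100a4, below 1 but with no call. At 1000 UMIs, Itgb1 was found in 18.2% of ribosome-rich PPARg-low and 3.37% of ribosome-rich matching cells, and in 30.5 and 27.8% of the ribosome-poor ones. Itgb1 thus passed within ribosome-rich and not within ribosome-poor cells, and whether its ratio differs between both kinds of cells was not tested.

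Receptors for chemokines and for egress split, 5 higher and 4 lower of 11, with a median of 0.19. Cxcr3, the receptor for interferon-induced chemokines, had 73 and 139 UMIs, 3.15-fold higher (2.34 to 4.21), while Ccr7, Ccr9 and S1pr1 were among the lower ones. Within ribosome-poor cells 0 of 5 were higher and 3 lower (median -0.64), and the Cxcr3 ratio was 1.31, with no call. Of 4 measured genes shared with Th1 cells, 3 were higher and 1, the protease gene Ctsw, was lower with 9 and 179 UMIs (0.301, 0.136 to 0.585). Ccl5, a chemokine, had 479 UMIs (566 CPM) and 261 (51.4 CPM), with an interval of the ratio from 9.44 to 12.8. A few cells held most of the Ccl5 UMIs: 5 of the 375 cells carried 293 of them (61.2%), and 1 cell carried 168. Without the 5 cells with most Ccl5 UMIs in each group, a comparison chosen after seeing the data, the ratio was 5.95 (4.83 to 7.32). Penk was concentrated in the same way, with 53.3% of its UMIs in 5 cells, and its ratio without the top 5 cells of each group was 6.98 (5.04 to 9.69). Pdcd1, with 13.6% of UMIs in its top 5 cells, had a ratio of 12.3 without them.

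Genes that T cell receptor signals switch on within hours were higher in 7 of 10 measured cases and lower in 0, with a median of 0.91, and within ribosome-poor cells 1 of 4 was higher and 1 lower. Fos had 34 UMIs (40.2 CPM) and 18 (3.55 CPM), 11.3-fold higher (6.22 to 21.3), Egr2 had 21 and 42 UMIs, and Junb was 2.49-fold and Jun 2.36-fold higher. The same genes respond to handling of cells. Of 11 measured heat shock genes 2 were higher and 0 lower, a share close to the 16.7% of all genes that were higher. The list's median was 0.42, or 0.15 relative to all genes. Those 2 were Hspa5 at 1.92-fold and Hspa1a, which a near-identical copy makes uncertain, with 29 and 9 UMIs. Hsp90aa1 had a ratio of 1.35 and Hspd1 one of 1.42, both under the size needed. Within ribosome-poor cells 3 of 7 heat shock genes were higher and 0 lower. The part of handling in the Fos difference was not tested. Of 13 NF-kB target genes 8 were higher and 0 lower (median 0.70), with Bcl2l1, a survival gene, at 2.41-fold and Traf1 at 1.64-fold, but within ribosome-poor cells 0 of 6 were higher.

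Of 8 measured TNF receptor family genes, 4 were higher and 1 was lower (median 0.77). Tnfrsf4 and Tnfrsf9 are on the effector list as well. Tnfrsf1b, the second TNF receptor, was 4.49-fold, Tnfrsf4, the costimulatory receptor OX40, 2.98-fold and Tnfrsf18, the receptor GITR, 2.12-fold higher, and with Tnfrsf9 all 4 were also higher within ribosome-poor cells, at 1.99- to 2.14-fold. Of 7 measured genes named for follicular Tregs, which control B cell follicles, 6 were higher and 0 lower (median 1.44), among them Tox2 with 24 and 15 UMIs and Tox at 2.71-fold (2.31 to 3.18). Pdcd1 is on this list as well. Within ribosome-poor cells 2 of 4 were higher and 1 lower (median 0.52).

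Of 6 other lists, the counts are to be read against 16.7% of all genes higher and 2.68% lower. Of 13 measured PPARg target and lipid genes, 1 was higher and 0 lower (median 0.41, or 0.15 relative to all genes). That gene was Plin2, a lipid droplet coat protein and a known PPARg target, with 31 and 99 UMIs, 1.88-fold higher (1.21 to 2.84), but without the 5 cells with most Plin2 UMIs in each group the ratio was 1.64 (0.998 to 2.60), with no call; the uncoupling protein Ucp2 had a ratio of 1.26 and Abcg1, a cholesterol exporter, had 39 and 156 UMIs and did not pass. Of 11 cholesterol synthesis genes 0 were higher and 2 lower, Sqle with 2 and 53 UMIs and Idi1 with 6 and 84. Of 13 interferon response genes 1 was higher, Ifi27l2a at 1.55-fold, and 3 were lower, Ifit3 (0.297), Usp18 (0.461) and Ifit1 (0.479). Of 13 glycolysis genes 5 were higher, with Tpi1 at 2.09-fold and Aldoa at 1.51-fold, and 0 lower. Of 11 cell cycle genes 3 were higher, Mki67 with 13 and 20 UMIs, Top2a with 25 and 39 and Mcm6 with 69 and 166, and 0 lower. Of 10 cytokine feedback genes 2 were higher, Dusp1 at 3.75-fold and Dusp5 at 2.01-fold, and 1 was lower, Socs2 at a ratio of 0.427. In the remaining lists, 2 of 7 common gamma chain receptor genes were higher and 1 lower, and 4 of 11 BCL2 family genes were higher and 2 lower. Within ribosome-poor cells no member passed in either direction of 2 lipid, 5 interferon, 6 glycolysis and 3 cell cycle genes measured there, while 3 of 6 gamma chain receptor and 1 of 4 BCL2 family genes were lower, and 1 of 3 feedback genes was higher and 1 lower. The medians of the chemokine receptor, gamma chain receptor, interferon and cell cycle lists, at 0.19, 0.24, 0.07 and 0.08, became -0.07, -0.02, -0.20 and -0.19 relative to the median of all genes, so those lists have no direction that holds under both scalings.

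**Figure D4:**
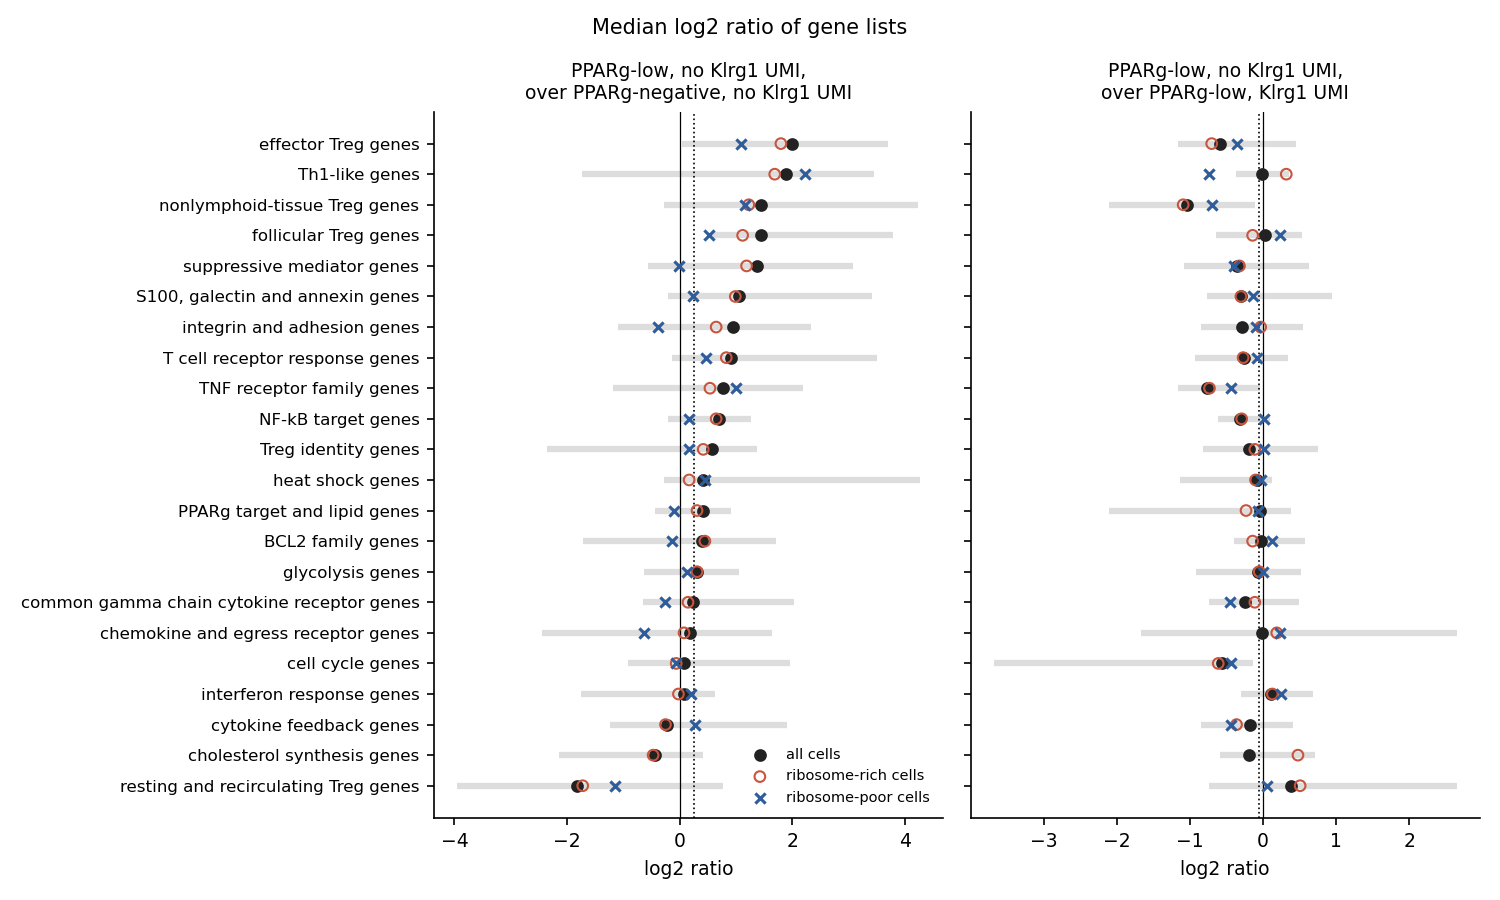
Median log2 ratio of each gene list for PPARg-low cells without Klrg1 UMIs over the matching PPARg-negative cells (left) and over Klrg1-positive PPARg-low cells (right), over all cells (black), ribosome-rich cells (red circles) and ribosome-poor cells (crosses); grey bars run from the lowest to the highest member over all cells and dotted lines mark the median of all genes. On the left the effector list lies at 1.99 and the resting list at -1.83, and on the right they lie at -0.58 and 0.39.

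Other genes with the highest ratios were Nrn1, Lgals3, Cybb and Nol10. Nrn1, which encodes a small membrane-anchored protein first known from neurons, had 145 UMIs (171 CPM) and 88 (17.3 CPM), 9.88-fold higher, and it was 9.53-fold higher in ribosome-rich and 6.11-fold higher in ribosome-poor cells. Cybb, a subunit of the NADPH oxidase, was 9.33-fold and the nucleolar gene Nol10 8.32-fold higher. In cells with 2000 or more UMIs, where a Klrg1 count of 0 rests on more transcripts, 103 of 108 named genes kept their call, and the ratios were 10.6 for Pdcd1, 9.12 for Nrn1, 0.106 for Satb1 and 0.294 for Ccr7.

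The second comparison stayed within the PPARg-low library and set the 375 cells against 450 cells that met every condition but had 1 or more Klrg1 UMIs, 969118 UMIs in all. Both groups came from the same library. The cells without Klrg1 UMIs had less RNA of effector, nonlymphoid-tissue and TNF receptor genes and more of Id3, Tcf7 and Ccr7. Tnfrsf9 and Tnfrsf4 are on both the effector and the TNF receptor list, so these lists are not separate. Of 6014 genes, 103 (1.71%) were higher and 225 (3.74%) were lower in the cells without Klrg1 UMIs, and the median log2 ratio was -0.05. With CPM computed without ribosomal protein and mitochondrial genes, 162 were higher and 176 lower, and centred on the all-gene median 145 and 188. Within ribosome-poor cells 50 of 2332 genes were higher (2.14%) and 55 lower (2.36%), and the ribosome-poor list counts below are to be read against these shares. Ribosome-poor cells were 169 of 450 (37.6%, 33.1 to 42.2%) in the Klrg1-positive group, against 25.3% in the other, and the median depth was 1932 UMIs. As the groups are defined by Klrg1 in the same cells, these are descriptions of what varies with it. Both comparisons share the 375 cells, so their values are set side by side and not correlated.

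Id3, which limits effector differentiation, was among the genes that were higher without Klrg1. Id3 had 271 UMIs (320 CPM) in the 375 cells and 94 (97.0 CPM) in the Klrg1-positive cells, 3.30-fold higher (2.60 to 4.22). In cells with 1 Klrg1 UMI it stood at 145 CPM, in the 265 cells with 2 or more at 67.1 CPM, and in the PPARg-negative matching cells at 260 CPM, so the ratio to the latter was 1.23 (1.08 to 1.41), under the size needed. Its ratio was 3.06 among ribosome-rich and 3.69 among ribosome-poor cells, higher in both. Tcf7 had 58 and 16 UMIs, 4.15-fold higher (2.35 to 7.74), with levels of 68.5, 34.9 and 5.03 CPM at 0, 1 and 2 or more Klrg1 UMIs and 156 CPM in the PPARg-negative cells. Ccr7 had 33 and 6 UMIs, 6.30-fold higher (2.61 to 18.4), with levels of 39.0, 10.7 and 3.35 CPM. The Ccr7 values at 1 and at 2 or more Klrg1 UMIs rest on 4 and 2 UMIs and overlap (2.92 to 27.5 and 0.406 to 12.1 CPM). For Id3 the intervals of all 3 classes were apart, and Tcf7 and Ccr7 were lower in the 375 cells than in PPARg-negative cells.

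Evl, a regulator of actin filaments, was 2.53-fold higher than in Klrg1-positive cells, with levels of 237, 137 and 67.1 CPM over the same 3 classes. Tbc1d4, which controls transport of glucose carriers, was 3.04-fold, Chchd10, a mitochondrial protein, 3.31-fold, Pdlim1, a cytoskeletal adaptor, 3.09-fold, Ssbp2, a DNA-binding protein, 2.86-fold and Ms4a4b, a membrane protein of T cells, 1.83-fold higher. Tbc1d4 was also 1.85-fold higher than in PPARg-negative cells (1.42 to 2.40), whereas Chchd10 (0.358), Pdlim1 (0.561) and Ms4a4b (0.523) were lower than in those. Of 10 measured resting genes 3 were higher and 1, Il7r at a ratio of 0.597, was lower, with a median of 0.39 (0.05 within ribosome-poor cells, 1 of 7 higher and 1 lower). Satb1 (1.14, 0.562 to 2.33) showed no detectable difference from Klrg1-positive cells.

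Of 15 measured nonlymphoid-tissue genes, 10 were lower in the cells without Klrg1 UMIs and 0 higher, with a median of -1.04. Within ribosome-poor cells 2 of 8 were lower and 0 higher (median -0.70). Penk stood at 213 CPM, against 510 CPM with 1 and 691 CPM with 2 or more Klrg1 UMIs, a ratio of 0.342 (0.288 to 0.405). Gata3 had 262 and 530 UMIs, a ratio of 0.566 (0.486 to 0.658), and was found at 1000 UMIs in 23.2% (19.0 to 27.8%) of cells without and 40.4% (35.9 to 45.1%) of cells with Klrg1 UMIs, and in 11.7% of PPARg-negative cells. Asb2 had 25 and 85 UMIs (0.337), Ctsh, a lysosomal protease, 14 and 58 (0.276), and Dgat2, an enzyme of triglyceride synthesis, 10 and 49 (0.234). Of the 10 lower members, Penk, Asb2, Ctsh, Trf and Mt1 are the 5 that earlier results on these libraries had placed on the list. Lgmn, another lysosomal protease, which is on no list, had 22 and 91 UMIs (0.277). Dgat2 is also on the PPARg target and lipid list. Of 10 measured genes of that list 3 were lower, Dgat1, Dgat2 and Acadl, and 0 higher, with a median of -0.04. After thinning to 1000 UMIs 1 of them was lower.

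Of 16 effector genes 7 were lower and 0 higher than in Klrg1-positive cells, with a median of -0.58. Within ribosome-poor cells 2 of 11 were lower and 1 was higher (median -0.35), and Icos at 0.954 and Id2 at 0.769 had no call. Tnfrsf9 stood at 529 CPM, against 1084 and 1249 CPM at 1 and at 2 or more Klrg1 UMIs, a ratio of 0.446 (0.399 to 0.498), and was lower in ribosome-rich (0.467) and ribosome-poor cells (0.543). Id2 had a ratio of 0.540, Icos one of 0.632 and Pdcd1 one of 0.644 (0.544 to 0.761). Nrn1 (0.888), Itgb1 (1.05), Tox (0.950) and Bhlhe40 (1.36, 0.886 to 2.11) showed no difference that passed. Of 8 TNF receptor genes 4 were lower and 0 higher (median -0.77; within ribosome-poor cells 1 of 7 was lower, median -0.43): Tnfrsf4 stood at 1230 and 2463 CPM (0.499, 0.464 to 0.537), Tnfrsf18 had a ratio of 0.601 and Tnfrsf1b one of 0.572, which in ribosome-poor cells was 1.01. Ctla4 had a ratio of 0.566 (0.485 to 0.659), and its level of 298 CPM lay between 526 CPM in Klrg1-positive and 115 CPM in PPARg-negative cells. Pairwise intervals of the level did not overlap for Tnfrsf9, Tnfrsf4, Ctla4, Gata3 and Pdcd1, so for these 5 genes the cells without Klrg1 UMIs stood between both other groups beyond counting error over all cells. Within ribosome-poor cells, Ctla4 had no call against either group (1.18 and 0.763), and Tnfrsf4 (0.718), Gata3 (0.746) and Pdcd1 (0.670) had none against Klrg1-positive cells.

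Of 11 measured cell cycle genes 3 were lower and 0 higher, with a median of -0.56, but after thinning to 1000 UMIs 1 was lower and the median was 0.03. Stmn1, a microtubule regulator of dividing cells, had 20 and 104 UMIs, a ratio of 0.220 (0.129 to 0.358), and Hist1h2ap, a histone gene with near-identical copies and thus uncertain, had 16 and 109. The other lower member was Birc5, a gene of cell division, named here after its values were seen. Rrm2, a nucleotide reductase subunit that is on no list, had 12 and 69 UMIs (0.199, 0.0982 to 0.371). A few Klrg1-positive cells held most of these UMIs: 5 of the 450 cells carried 80 of the 104 Stmn1 UMIs (76.9%), 76.1% of those of Hist1h2ap and 75.4% of those of Rrm2. A Stmn1 UMI was found in 3.47% of the cells without and 4.67% of those with Klrg1 UMIs, unthinned. Without the 5 cells with most UMIs of the gene in each group, again chosen after seeing the data, 8 and 24 Stmn1 UMIs were left, a ratio of 0.373 (0.145 to 0.859). Within ribosome-poor cells 1 of 8 cell cycle genes was lower (median -0.43). Mki67 (0.532) and Top2a (0.734) did not pass. Of the Klrg1-positive cells 8 were marked as doublets, of the 375 cells 1.

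Where the PPARg-low cells over either gene sum are added, 290 cells that were left out by the rule and of which 72.1% were ribosome-poor, Tnfrsf9 stood at 1882 CPM, Ctla4 at 965 CPM and Pdcd1 at 532 CPM, all above the 375 cells, and Bcl2 at 48.5 CPM and Id3 at 64.2 CPM, both below them. Itgb1 was at 214 CPM there, against 208 CPM in the 375 cells, with overlapping intervals. In the PPARg-negative library, 64 cells met both sums and had a Klrg1 UMI, with 140378 UMIs in all. Of these cells 27 were ribosome-poor (42.2%), against 5.01% of the matching cells without Klrg1 UMIs. Their Icos level was 598 CPM, Ikzf2 1596 CPM and Itgb1 171 CPM, and Id3 stood at 114 CPM, while Satb1 at 92.6 CPM (49.3 to 158) and Bcl2 at 299 CPM (216 to 404) were above the 21.3 and 150 CPM of the PPARg-low cells without Klrg1 UMIs. The Id3 level of these 64 cells lay below that of the matching PPARg-negative cells without Klrg1 UMIs (260 CPM). It rests on few cells, and the part of the ribosome-poor share in this difference was not tested.

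The 375 cells were not uniform. At 1000 UMIs per cell they carried a mean of 3.99 UMIs of the 16 effector genes (SD 3.92 over cells, range 0 to 24) and 1.57 of the 16 resting genes (SD 1.59). The matching PPARg-negative cells carried means of 1.06 and 3.78 UMIs, and the Klrg1-positive PPARg-low cells 7.16 and 1.33. More effector than resting UMIs were counted in 231 of the 375 cells (61.6%, 56.5 to 66.5%), in 12.4% of the matching cells and in 84.2% (80.5 to 87.5%) of the Klrg1-positive cells. More resting than effector UMIs were counted in 99 of the 375 cells (26.4%, 22.0 to 31.2%), in 79.2% of the matching and in 8.44% (6.04 to 11.4%) of the Klrg1-positive cells. Both kinds of UMI were present in 61.6% of the 375 cells, effector UMIs alone in 24.8% and resting UMIs alone in 12.8%. Ribosome-poor cells among the 375 carried a mean of 7.24 effector UMIs and ribosome-rich ones 2.89, and ribosome-rich matching cells carried 0.918. Cells are not replicates, and these shares describe each library.

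**Figure D5:**
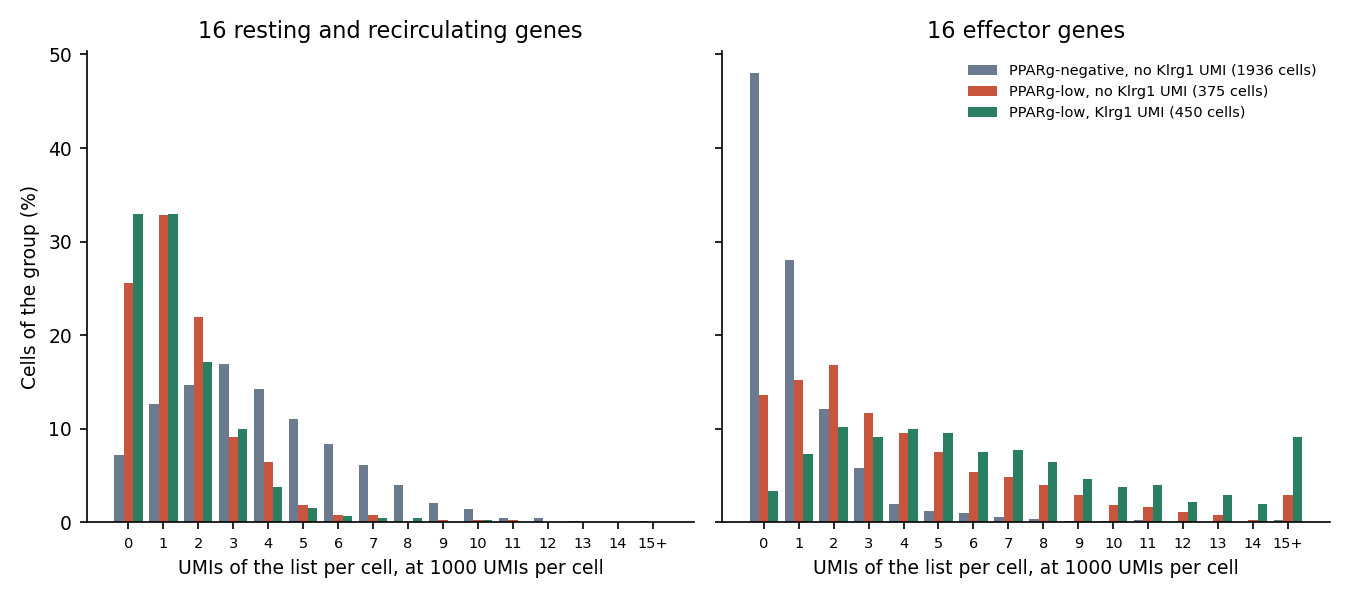
Share of cells (y axis) with a given number of UMIs of 16 resting and recirculating genes (left) and 16 effector genes (right) after thinning to 1000 UMIs per cell, in PPARg-negative cells without Klrg1 UMIs, PPARg-low cells without them and PPARg-low cells with them. No effector UMI was counted in 48.0% of the PPARg-negative, 13.6% of the PPARg-low cells without and 3.33% of those with Klrg1 UMIs.

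Among 2693 genes with a mean of at least 0.05 UMIs per cell at that depth, the variance over the mean, which is 1 for pure counting noise, had a median of 1.02, and 26 genes exceeded 2. Ccl5 was first at 23.3, with a UMI in 54 of the 375 cells, 3 or more in 15 cells and up to 59 in 1 cell, against 3.57 in the matching cells. Penk followed the abundant RNAs Malat1 (15.6) and Actb (8.90) at 6.73, with a UMI in 32 cells and 3 or more in 7. Tmsb4x, an actin-binding peptide, reached 3.33, Cd52, a surface glycoprotein, 3.15, Tnfrsf4 2.98 and the interferon-induced Ifi27l2a 2.75. Penk and Ccl5 were thus each found in a minority of the cells, at high counts in a few.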

How the data were processed

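Per the labels, Tregs sorted from pooled spleens by both reporters were captured with 10x Genomics 3′ chemistry, as 1 PPARg-low and 1 PPARg-negative library. The authors deposited raw UMI counts per gene and barcode as filtered matrices. Cell Ranger 2.1.0 and the mm10 build are named in the submitters' processing notes, and neither the annotation nor how cells were called is given there or in the labels. Gene positions came from GENCODE M21 (mm10), in which 28339 of 28692 gene identifiers were found.

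Cells were kept at 10% or less mitochondrial UMIs and 1000 or more UMIs. UMIs were summed per group and divided by the group's total. The ratio of 2 groups carries an exact conditional binomial interval, a level an exact Poisson interval and a share of cells an exact binomial (Clopper-Pearson) interval, all at 95%. With 1 library a group there was no test across samples. Shares of cells and UMIs per cell were taken after thinning each cell to 1000 UMIs. Doublets were marked with Scrublet in scanpy 1.11.5, 11 of 1619 PPARg-low (0.679%) and 8 of 2633 PPARg-negative cells (0.304%). The caller marked few cells, and marked cells stayed in except in 1 alternative. The ratio interval and the call rule were run on simulated Poisson sums of counts. Such sums hold no variation between cells or mice, so that run cannot show how well the intervals hold for these cells.

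Genes were named by a rule: Pparg, Foxp3 and the genes of the selection, the 12 highest and 12 lowest against PPARg-negative cells and the 8 highest and 8 lowest against Klrg1-positive cells, of those with 50 or more UMIs, in order of the end of the interval that lies closer to 1, up to 4 genes of each of 22 lists (6 of the 3 main lists), and the 8 genes of highest variance over mean. Marker genes of other cell types stand outside it. The cells, the lists, the 20% ribosomal split and the rule were chosen with earlier results of these data known. Python 3.11.15, numpy 2.4.6, scipy 1.17.1 and pandas 2.3.3 were used.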

Additional observations from a re-analysis of the deposited data

How the results depend on the processing

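The counts of genes moved by more than 1.5 times under several settings. Against PPARg-negative cells, 1366 genes higher and 220 lower became 775 and 376 with CPM computed without ribosomal protein and mitochondrial genes, 696 and 534 when centred on the all-gene median, 2160 and 625 by the mean of per-cell CPM and fold alone, 647 and 125 at a fold of 2, and 88 and 82 in ribosome-poor cells, where fewer genes were measured. Thinning to 1000 UMIs left 878 higher. Against Klrg1-positive cells, 103 higher and 225 lower became 325 and 574 by the mean of per-cell CPM and fold alone, 28 and 88 at 100 or more UMIs per gene, 47 and 96 at a fold of 2, and 50 and 55 in ribosome-poor cells. There, 162 were higher without ribosomal protein and mitochondrial genes, and 135 were lower after thinning. Against PPARg-negative cells, 103 of 107 named genes kept their call in ribosome-rich cells and 30 of 49 in ribosome-poor cells. In the latter, among genes and lists past the fold over all cells, values below 0 were found for Cd44 (-0.89), Icam1 (-0.71), S100a4 (-0.48) and Itgb1 (-0.24), and for the medians of the adhesion (-0.39) and suppressive mediator lists (-0.01). Also below 0 there were Hadha (-0.91) and the medians of the chemokine receptor (-0.64), gamma chain (-0.25), BCL2 (-0.14), lipid (-0.10) and cell cycle lists (-0.06). Against Klrg1-positive cells, Tnfrsf1b had a log2 ratio of 0.01 in ribosome-poor cells. The cause was not tested for any of these. With cells classed by Klrg1 after thinning, a setting added after seeing the data, 103 of 113 named genes kept their call against PPARg-negative and 92 of 101 against Klrg1-positive cells. Without the 5 cells with most UMIs of the gene in each group, also added later, 97 of 104 and 85 of 90 kept it. No paired analysis was possible because each group is 1 library, and for the same reason no replicate could be left out. Depth limits genes of few UMIs such as Foxp3 and Pparg.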
